A study of Mus musculus with 45 samples.

Results

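Of 8199 regions whose DNA methylation was listed as different between obese and control mice (differentially methylated regions, DMRs), 397 (4.84%) had their midpoint within 1000 bp of the start of an annotated gene, on either side. These 397 start-DMRs lay at the starts of 407 of 24918 gene entries (1.63%). The rule used position alone, and neither direction nor expression. DNA methylation and gene expression were measured in epithelium released with EDTA from the whole colon of male C57BL/6 mice, of the J substrain by the study's methods. The mice entered the diets at 6 weeks of age. Control mice received a 10% fat diet for 20 weeks, obese mice a 60% fat diet for 20 weeks, while formerly obese mice spent 15 weeks on high-fat and the last 5 weeks on low-fat food. Each of 3 assays covered 5 mice per group, namely RNA-seq, BSP-seq (bisulfite-treated PCR amplicons) and WGBS (bisulfite sequencing of the whole genome), and the DMR list came from WGBS of obese against control mice. A hyper-DMR is a region listed as more methylated in obese mice and a hypo-DMR as less methylated.

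In mammals most methylated cytosines are in CpG dinucleotides. Dense CpG clusters around many gene starts, the CpG islands, are usually free of methylation, and methylation there is commonly associated with silence of the gene, except at imprinted genes, where only the copy from one parent is methylated. Gene starts of lower CpG density and the regions beside islands show more variable methylation, and its relation to transcription is looser.

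Expression was called different in at least 1 comparison for 14 of the 179 genes with enough counts to be tested. The cutoffs, and the shares called among all genes in each single comparison, are given with the expression results. The share of all genes called in at least 1 comparison was not counted, so the 14 have no background share beside them. Each start-DMR of these genes held 2 CpGs, and 13 of the 14 were not island-like, that is, they lacked a GC content over 50% together with an observed to expected CpG ratio over 0.6 in the surrounding 500 bp. Start-DMRs in general were much alike in this, as 92.4% of all 397 held 2 CpGs and only 13.9% were island-like. The first 6 stretches hold the start-DMRs of the 6 called genes whose region lay upstream of the gene start. The Peg10 stretch is shown because it was the only pair of gene starts with 3 regions, and it was chosen after its values were seen. Sequences are from GRCm38 (mm10), 5′ to 3′ on the strand of the gene, with up to 40 bases on either side of the region, and capitals mark the CpGs inside the DMR. For Hoxd10 and Hsd3b3 the region alone is printed because annotated exons of other transcripts, including predicted ones, cover it.
Scd1, chr19:44408501-44408587, minus strand: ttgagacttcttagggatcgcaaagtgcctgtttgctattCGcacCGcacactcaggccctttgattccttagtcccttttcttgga
Ptk6, chr2:181203043-181203162, minus strand: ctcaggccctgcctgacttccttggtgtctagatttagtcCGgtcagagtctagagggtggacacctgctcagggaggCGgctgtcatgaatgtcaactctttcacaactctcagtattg
Tmem252, chr19:24673548-24673647, plus strand: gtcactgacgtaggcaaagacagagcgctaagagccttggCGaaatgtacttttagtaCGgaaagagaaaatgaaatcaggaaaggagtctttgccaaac
Slc8a1, chr17:81738464-81738556, minus strand: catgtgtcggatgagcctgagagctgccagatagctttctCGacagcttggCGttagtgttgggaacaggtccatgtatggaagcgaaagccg
Hoxd10, chr2:74691630-74691637, plus strand: CGctggCG
Hsd3b3, chr3:98764054-98764063, minus strand: CGacacagCG
Peg10, chr6:4747929-4748173, plus strand: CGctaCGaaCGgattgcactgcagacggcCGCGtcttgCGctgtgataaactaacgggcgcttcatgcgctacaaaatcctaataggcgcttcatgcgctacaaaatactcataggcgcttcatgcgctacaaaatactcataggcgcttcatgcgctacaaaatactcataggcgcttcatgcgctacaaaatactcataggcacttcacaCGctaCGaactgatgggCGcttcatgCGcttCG
Each of the first 6 stretches held 2 CpGs in the region. The Peg10 stretch held 23 CpGs, of which 11 lay in its 3 hypo-DMRs, and between the regions it held 5 exact copies of the 22-base unit ggcgcttcatgcgctacaaaat.

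Start-DMRs were short and of either direction. Hyper-DMRs numbered 216 and hypo-DMRs 181, a hyper share of 54.4% (exact binomial 95% interval 49.4% to 59.4%, counting error only) beside 50.1% of the 7802 other DMRs. The list holds no methylation value per mouse, so this share has no replicate error and was not tested. The median length was 17 bp (range 4 to 600 bp) against 29 bp (range 4 to 2112 bp) for the other DMRs, and 30 start-DMRs (7.56%) were 100 bp or longer against 21.4% elsewhere. Exactly 2 CpGs were held by 367 start-DMRs (92.4%) and by 93.4% of the other DMRs. The study's definition of a DMR required at least 2 differentially methylated CpGs, so 2 is the smallest number a region can hold. The region with the most CpGs was a 100-bp hyper-DMR with 7 CpGs in an untranslated exon of Hopx, a homeodomain-only protein of intestinal stem and progenitor cells. Next were a hypo-DMR with 5 CpGs at Peg10 and hyper-DMRs with 4 CpGs at Mir5114 and at Wnt3, a Wnt ligand.

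**Figure D1:**
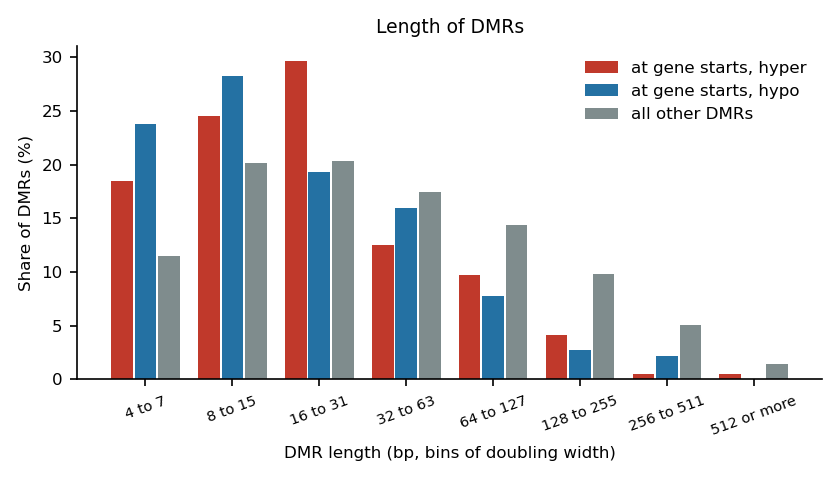
Share of DMRs (%) in each length bin (bp) for hyper-DMRs and hypo-DMRs at gene starts and for the 7802 other DMRs. Start-DMRs of either direction are concentrated in the bins below 32 bp, and the bins from 64 bp upward hold larger shares of the other DMRs.

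The DMRs were spread over the whole window rather than gathered at the start itself. Relative to the nearest gene start, 184 midpoints were upstream and 213 downstream, the median distance was 543.5 bp, and 104 lay within 250 bp against 119 between 750 and 1000 bp. Only 7 regions overlapped the start base, among them the 56-bp hypo-DMR at Mir194-1, whose microRNA is abundant in gut epithelium and whose partner gene Mir215 starts within the same window. By midpoint, 154 regions lay outside curated transcripts, 147 in introns, 42 in coding exons, 37 in untranslated exons and 17 in exons of noncoding RNAs. Upstream positions made up 45.4% of hyper-DMRs and 47.5% of hypo-DMRs. At the border of the rule, the regions of D430041D05Rik and Nnat lay 994.5 and 996.5 bp from the start and were counted, and those of Slc35d1 and Dclk1, at 1000.5 and 1001.5 bp, were not.

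**Figure D2:**
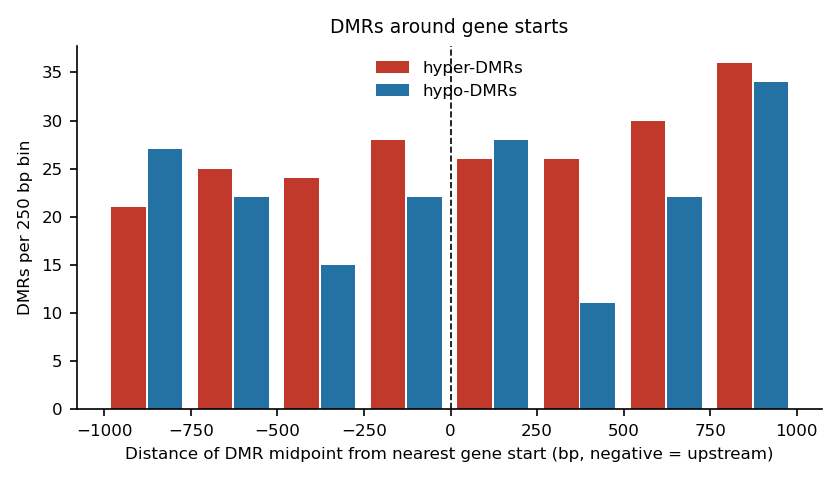
Number of start-DMRs per 250-bp bin of distance from the nearest gene start (bp, negative values upstream), for hyper-DMRs and hypo-DMRs. Both directions fill every bin on both sides, and the lowest bar is that of hypo-DMRs from 250 to 500 bp downstream, with 11 regions.

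Windows of 1000 bp around all gene starts held 1.71% of the sequenced bases and 6.55% of the CpGs of the 21 chromosomes that carried a DMR. Per 1000000 CpGs, 277.1 DMRs lay inside these windows and 381.8 outside. The CpGs that could be tested by WGBS are not known from the list, so the ratio is a description. Start-DMRs lay in more CpG-rich sequence than the others. In the 500 bp around the midpoint, median GC content was 51.2% against 47%, and the median ratio of observed to expected CpGs was 0.418 against 0.272. By these measures 55 start-DMRs (13.9%) were island-like against 149 of the others (1.91%). Island-like start-DMRs were 25 hyper and 30 hypo, and 39 of the 55 lay downstream of the start. Repeat sequence, as soft-masked in the reference, held 30 start-DMR midpoints (7.56%) against 21.1% of the others.

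**Figure D3:**
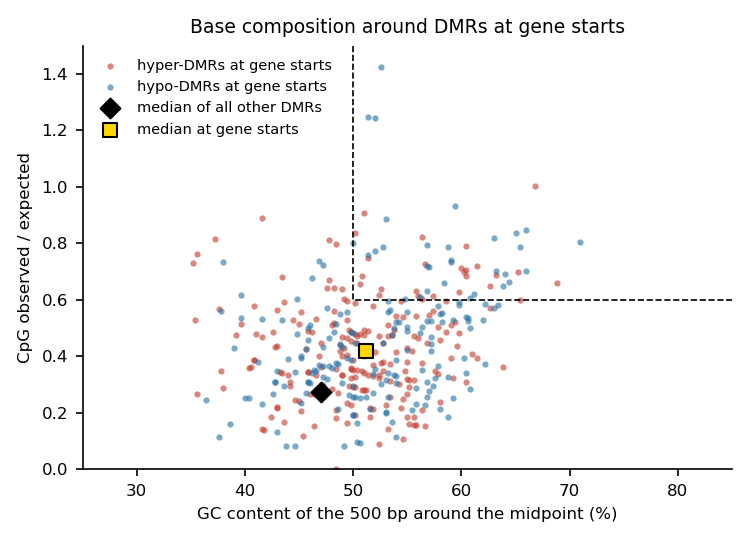
GC content (%) against the ratio of observed to expected CpGs in the 500 bp around each of the 397 start-DMRs, with the medians of the start-DMRs and of the other DMRs. Points above and to the right of the dashed lines are the 55 island-like regions, and most points of either direction lie below the CpG ratio of 0.6.

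Several genes carried more than 1 start-DMR. Of the 12 such genes, 7 had regions of a single direction and 5 had hyper- and hypo-DMRs. Traip, a ubiquitin ligase of DNA replication, carried a pair of hypo-DMRs within 91.5 bp of its start in island-like sequence, and St6galnac6, a sialyltransferase, carried a pair of hyper-DMRs. In the neuronal glucose transporter gene Slc2a3, a hyper-DMR lay 247.5 bp upstream and a hypo-DMR 905.5 bp downstream. Mir124a-2, Calhm2, 2410004P03Rik and the protocadherin gene Pcdhga3 likewise had a region of each direction. The others with a single direction were AI429214, with hyper-DMRs, and Peg10, Sgce, Htr5b and 4833403I15Rik, with hypo-DMRs. In addition, 65 of the 407 genes held a further DMR elsewhere in the gene body, and in 38 of these 65 the regions of the gene were of both directions. Conversely, 24 regions lay within 1000 bp of a pair of starts, 13 of them at 11 divergent pairs such as Cks1b and Shc1, a regulator of cyclin-dependent kinases and a receptor adaptor.

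Imprinted genes express mainly the copy from one parent. Of 46 such genes in a list written with the members known, 10 (21.7%) had a start-DMR, at 11 regions of which 9 were hypo and 2 hyper, and 7 of the 11 were island-like. Hypo-DMRs lay at Peg10 and Sgce, at Plagl1, a zinc finger growth regulator, at Impact, a translation regulator, at Slc38a4, an amino acid transporter, at Nnat, at Sfmbt2 and at Mir483, inside Igf2. The hyper-DMRs lay 43 bp upstream of the start of the entry of Gnas, the stimulatory G protein subunit, and at Nespas, an antisense transcript of the Gnas cluster. The Gnas entry spans chr2:174284320-174346742, and its start here is the first base of that span. Counts are per entry, so expression from this start cannot be told apart from that of other Gnas transcripts. Because the list was written after the symbols were seen, its share is no independent measure. In expression, Gnas was abundant (control 706.7 ± 53.3 CPM, obese 679.9 ± 23.3, formerly obese 698.6 ± 37.9, SD, n = 5 each), and Impact had 11 ± 1.22, 11.6 ± 1.75 and 11.2 ± 1.68 CPM. Neither difference passed the test (edgeR adjusted p = 0.754 for Gnas and 0.868 for Impact, obese against control). Peg10 and Sgce had means of at most 0.0605 and 0.165 CPM in any group and did not pass the filter on low counts.

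By symbol, start-DMRs were found in 17 of 459 receptor and signalling genes (3.7%), 13 of 540 zinc finger genes (2.41%) and 14 of 1347 small RNA genes (1.04%). They were also found in 11 of 378 adhesion, keratin and junction genes (2.91%) and 10 of 389 solute carriers (2.57%). Immune genes had 10 of 476 (2.1%) and developmental transcription factors 6 of 282 (2.13%). Over all gene entries the share was 1.63%, and these differences were not tested. The classes were set by the beginnings of symbols alone and are incomplete. Receptor genes such as Htr5b, Htr6, Adra2b and P2ry13, and the homeobox genes Pdx1 and Evx1, had a start-DMR but fell outside them. The zinc finger class also took in symbols that begin with Rnf. Genes known by a clone name had 59 of 3826 (1.54%), and 267 of the genes were in no class. Among signalling genes 11 had hyper-DMRs and 6 hypo-DMRs, and among solute carriers 3 had hyper-DMRs, 6 hypo-DMRs and 1 both. None of the 14 small RNA genes passed the filter on low counts in these mRNA libraries. Of the longest regions, the 600-bp hyper-DMR lay in an intron of Rras, a Ras-related GTPase, and the 480-bp hypo-DMR in an intron of Atp2b2, a plasma membrane calcium pump. The hypo-DMR of 254 bp upstream of Bmp2, a morphogen of mature colonocytes, was also among the 5 longest of its direction. The others of the 5 longest lay at Fgf4, Mir125b-1, Aox1 and Efcab4a (hyper) and at Magea3, Dlg4 and Gm13084 (hypo).

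The expression of these genes was read from RNA-seq counts of the same 3 groups. Library totals were 15230391 to 22762095 counts, with the highest in formerly obese replicate 3. Summed markers of colon epithelium came to 17700 to 26200 CPM (TMM-scaled counts per 1000000) in every library, while smooth muscle markers reached at most 2.26 CPM and adipocyte markers 0.113 CPM. Fibroblast markers ranged from 2.28 to 10.5 CPM in control, 6.42 to 17.3 in obese and 5.89 to 30.1 in formerly obese mice. Immune markers ranged from 13.8 to 24.4 CPM in control, 19.1 to 43 in obese and 16 to 38.8 in formerly obese mice, and the part of either list in the results was not tested. In a bulk sample, fewer cells of a type and less RNA per cell cannot be told apart. Of the 407 genes, 179 (44%) passed the filter on low counts against 52% of all entries, and 84 had 0 counts in every library. The tested members were also lower in level, with a median of 3.54 CPM per kb of exon against 8.04 over all tested genes. Among genes with an island-like start-DMR 17 of 58 (29.3%) passed the filter, against 162 of 349 (46.4%) of the rest.

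Between obese and control mice, 3 of the 179 tested genes were called (1 higher and 2 lower, 1.68%), where 1.58% of all 12961 tested genes were called. Calls followed the cutoffs of the study, a fold over 1.2 in either direction with a p-value under 0.01 and an adjusted p under 0.25. The share of called members was near that of all genes. The median log2 fold change was -0.00695 in the 96 tested genes with hyper-DMRs only, -0.0093 in the 82 with hypo-DMRs only and 0.000245 over all genes. Higher mean expression in obese mice was seen in 47 of the 96 and in 37 of the 82. Without a cutoff on fold or adjusted p, 9.5% of the members had a p-value under 0.05 against 10.9% of all genes.

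**Figure D4:**
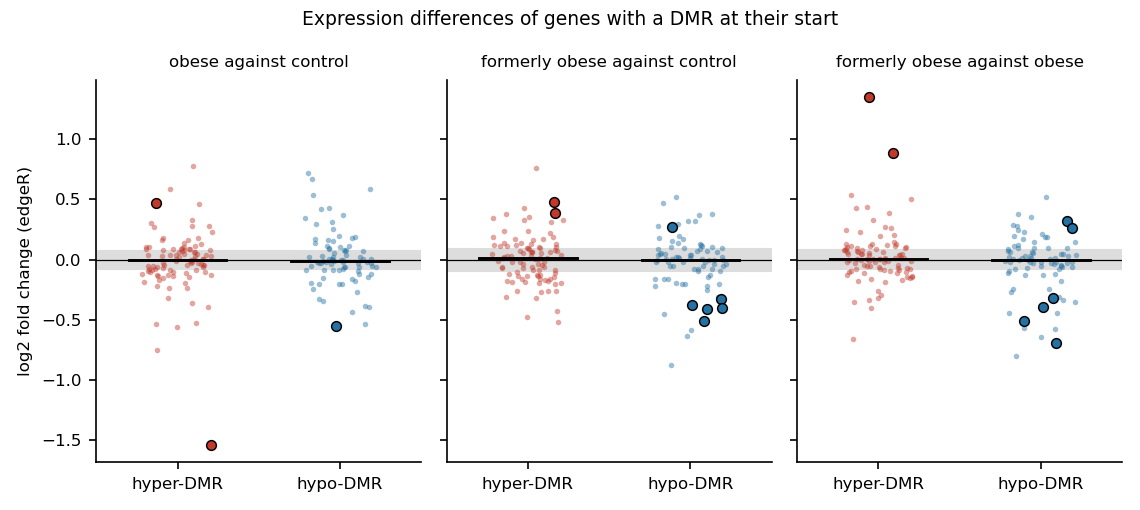
Log2 fold change (edgeR) of each tested gene with hyper-DMRs only or hypo-DMRs only at its start, in the 3 comparisons. Each point is a gene, outlined points were called, black bars are medians and the gray band spans the quartiles of all 12961 tested genes. The medians of both directions lie near 0 in each comparison, and Scd1 is the lowest point of obese against control and the highest of formerly obese against obese.

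Scd1 carried the clearest difference. It encodes stearoyl-CoA desaturase, which makes monounsaturated from saturated fatty acids, and its hyper-DMR of 7 bp (chr19:44408541-44408547) lay 835 bp upstream of the start, outside transcripts. Its levels were 45.5, 57.2, 50.3, 61.9 and 65.9 CPM in control mice, 18.6, 18.7, 17.8, 22.9 and 18.7 CPM in obese mice and 41, 35.9, 67.3, 59.5 and 41.2 CPM in formerly obese mice. All obese mice were below all mice of the other groups, and the control and formerly obese mice overlapped. The log2 fold change was -1.54 ± 0.157 (SE) in obese against control mice (edgeR adjusted p = 0.000224) and 1.35 ± 0.156 in formerly obese against obese mice (edgeR adjusted p = 0.000747), comparisons that share the obese libraries. Formerly obese against control mice differed by -0.19 ± 0.147 (edgeR adjusted p = 0.544). Both calls were kept in all 15 fits that left out a library and under every other setting. Scd1 was the only one of the 67 fuel and lipid genes of a list written from the study and general knowledge that had a start-DMR, and of the 65 tested genes of that list 3 were called higher and 8 lower in obese against control mice. In formerly obese mice 7 and 6 were called against control, and 1 and 1 against obese mice. Of all tested genes 1.58%, 3.72% and 2.65% were called in the 3 comparisons, and the list was chosen with earlier results known. Lists of 25 feedback and signalling genes and of 17 DNA methylation genes held 0 genes with a start-DMR.

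Ptk6 and Kazald1 were the other called genes in obese mice. Ptk6, an intracellular tyrosine kinase of epithelia, had a hyper-DMR of 40 bp (chr2:181203083-181203122) 313.5 bp upstream of its start. Its levels were 13.3, 14.3, 14.1, 16.3 and 12.7 CPM in control mice, 24.8, 15.2, 19.6, 17.4 and 21.1 CPM in obese mice and 19.1, 15, 18.2, 18.8 and 21.3 CPM in formerly obese mice. Single obese and formerly obese mice reached down into the control range. The log2 fold change was 0.47 ± 0.118 (SE) in obese mice (edgeR adjusted p = 0.138) and 0.38 ± 0.118 in formerly obese mice (edgeR adjusted p = 0.103), both against the same control libraries. The call in formerly obese mice was lost without control replicate 1, 3 or 5 or formerly obese replicate 1 or 5 (0.33 to 0.45 over all left-out libraries). The call in obese mice was lost without control replicate 1 or 2 or obese replicate 1, 3 or 5, with values of 0.37 to 0.55. Kazald1, a secreted protein with a Kazal-type domain, had a hypo-DMR in an intron downstream of its start. Its levels were 3.11, 5.04, 5.21, 4.99 and 5.28 CPM in control mice, 3.58, 3.54, 3.54, 2.5 and 2.94 CPM in obese mice and 4.14, 3.63, 3.65, 3.78 and 5.37 CPM in formerly obese mice. One control mouse lay within the obese range. The log2 fold change in obese mice was -0.55 ± 0.167 (SE, edgeR adjusted p = 0.213), and the call was lost without control replicate 2, 3 or 5 or obese replicate 1, 3, 4 or 5 (-0.67 to -0.47), and with no filter on low counts.

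Of the 16 members with the smallest p-values in obese against control mice (8 of either direction, averaging 50 counts or more), 13 did not pass the test. Of these, 2 of 6 with hyper-DMRs and 2 of 7 with hypo-DMRs had the higher mean in obese mice, with edgeR adjusted p of 0.305 to 0.52. Rdx, which links actin to the cell membrane, was at 24.7 ± 1.94 CPM in control and 18.9 ± 4.55 CPM in obese mice (SD, n = 5, edgeR adjusted p = 0.327) and carried a hyper-DMR. Bmp2 was at 68 ± 8.75 and 56.5 ± 9.58 CPM (edgeR adjusted p = 0.37). Cpsf6, an RNA 3′ end processing factor with a hypo-DMR, was at 77.5 ± 7.37 and 88.7 ± 8.17 CPM (edgeR adjusted p = 0.305). Cflar, an inhibitor of caspase activation with a hyper-DMR, was at 75.1 ± 4.01 and 83.9 ± 3.85 CPM (edgeR adjusted p = 0.326). Anapc5, a subunit of the anaphase-promoting complex with a hyper-DMR, was at 142.7 ± 5.77 and 132.6 ± 3.36 CPM. Zfp113, a zinc finger gene, and Got2, a mitochondrial aminotransferase, both with hypo-DMRs, were at 21.5 ± 1.99 and 60.8 ± 5.03 CPM in control and 19 ± 1.2 and 54.7 ± 2.31 CPM in obese mice. The remaining genes with lower means in obese mice were 1700037H04Rik and Tmem252, with hyper-DMRs, and St8sia5 and Hepacam2, with hypo-DMRs, and those with higher means were H2-T3 and Bola1. Cd68, a macrophage marker with a hyper-DMR, was the only gene of a fixed list of 46 cell type markers with a start-DMR. It had means of 1.08 CPM in control, 1.1 CPM in obese and 1.18 CPM in formerly obese mice. Of the 31 tested cell type markers, 1 was called higher in obese against control mice, a goblet cell marker. In formerly obese mice 2 were called higher against control and 1 against obese mice, all of colon epithelium, and 0 were called lower. Of all tested genes 1.58%, 3.72% and 2.65% were called in these comparisons.

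**Figure D5:**
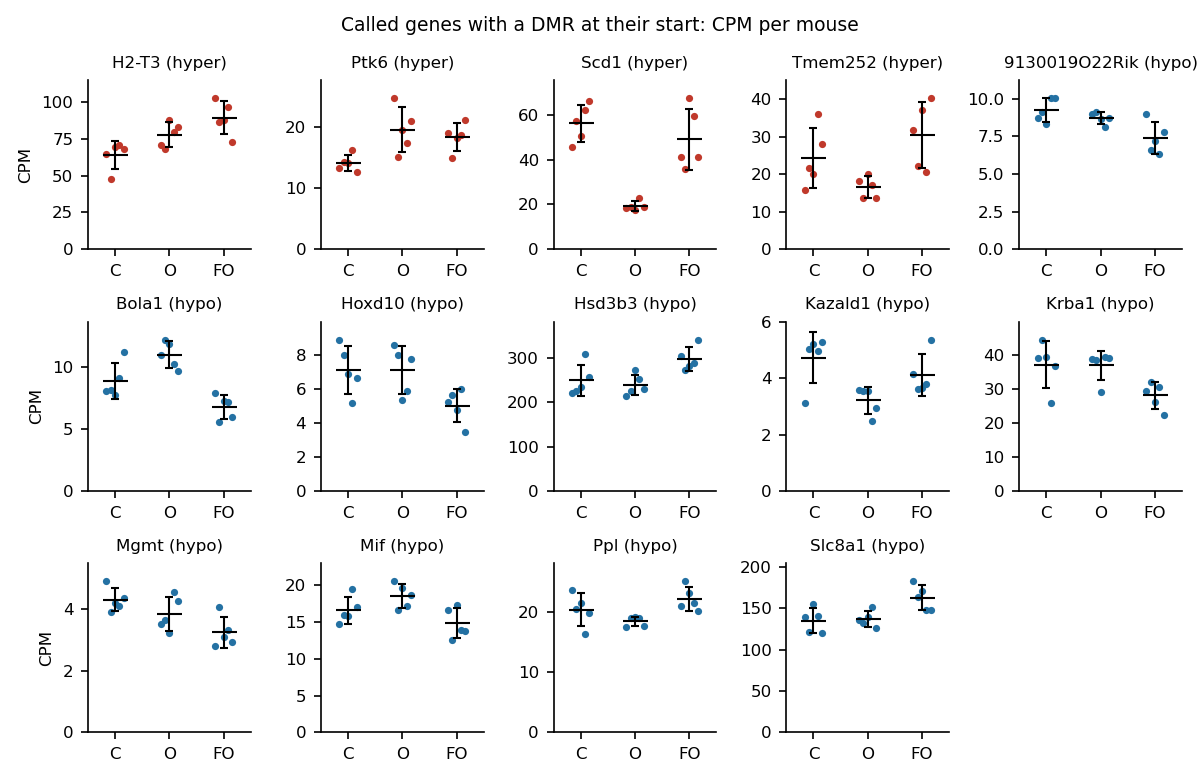
CPM of the 14 called genes in each of the 15 mice (C, control; O, obese; FO, formerly obese), with the direction of the start-DMR in the title of each panel. Points are mice and black bars the mean ± SD (n = 5). The obese mice of Scd1, at 17.8 to 22.9 CPM, lie below all other mice, and the formerly obese mice of Bola1 lie below all obese mice.

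In formerly obese against control mice, 8 of the 179 genes were called (3 higher and 5 lower, 4.47%), beside 3.72% of all tested genes. With upper-quartile scaling the split was 2 higher and 6 lower. The higher genes were H2-T3, Ptk6 and Slc8a1, and the lower ones 9130019O22Rik, Bola1, Hoxd10, Krba1 and Mgmt. H2-T3, a nonclassical MHC class I gene of intestinal epithelium, had a 4-bp hyper-DMR (chr17:36189390-36189393) in a coding exon 759.5 bp downstream of its start. Its levels were 64.7, 47.7, 69.4, 70.8 and 67.7 CPM in control mice, 70.5, 68.3, 87.8, 79.6 and 82.6 CPM in obese mice and 102, 86.1, 87.9, 96.5 and 72.8 CPM in formerly obese mice. Formerly obese mice were all above all control mice, while the obese mice overlapped both groups. The log2 fold change was 0.48 ± 0.105 (SE) in formerly obese mice (edgeR adjusted p = 0.0276), kept in all 15 fits that left out a library, and 0.28 ± 0.105 in obese mice (edgeR adjusted p = 0.333). Reads of this gene may be split with near-identical genes of its family, so its level is uncertain.

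Slc8a1, the sodium/calcium exchanger with a 13-bp hypo-DMR 123 bp upstream of its start, had 135.1 ± 14.9 CPM in control mice, 137.1 ± 9.21 CPM in obese mice and 162.8 ± 15 CPM in formerly obese mice (SD, n = 5), a log2 fold change of 0.27 ± 0.075 (SE, edgeR adjusted p = 0.072). Hoxd10, a posterior Hox gene that specifies position along the body and gut, had an 8-bp island-like hypo-DMR (chr2:74691630-74691637) 257.5 bp upstream of its start. Its levels were 8.91, 7.99, 6.88, 5.17 and 6.63 CPM in control mice, 8.62, 8.01, 5.37, 5.86 and 7.75 CPM in obese mice and 5.24, 5.64, 4.76, 5.97 and 3.45 CPM in formerly obese mice. The formerly obese mice were at the low end and overlapped both other groups. Formerly obese mice differed by a log2 fold change of -0.51 ± 0.174 (SE) from control mice (edgeR adjusted p = 0.141) and of -0.51 ± 0.173 from obese mice (edgeR adjusted p = 0.197). In a list of 13 posterior Hox genes, 11 were tested and 7 were called lower in formerly obese against control mice, 1 lower in obese against control and 2 lower in formerly obese against obese mice. Over all 12961 tested genes, 242, 112 and 184 were called lower in these comparisons, and the list was chosen with earlier results of these data known. A second member, Hoxc10, carried a hyper-DMR but had at most 0.0125 CPM in any group mean.

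Krba1, a KRAB domain gene with an intronic hypo-DMR, had 37.2 ± 6.95 CPM in control mice, 37 ± 4.38 CPM in obese mice and 28.2 ± 3.98 CPM in formerly obese mice (SD, n = 5, edgeR adjusted p = 0.112 against control). Mgmt, which repairs alkylated guanine in DNA, had a hypo-DMR of 4 bp in an intron 574.5 bp downstream of its start. It was at 4.31 ± 0.376, 3.85 ± 0.542 and 3.25 ± 0.502 CPM (edgeR adjusted p = 0.123 against control). The clone-named gene 9130019O22Rik, with a hypo-DMR in a coding exon, was at 9.24 ± 0.777, 8.72 ± 0.388 and 7.37 ± 1.07 CPM (edgeR adjusted p = 0.0984 against control). All 5 genes called lower in formerly obese against control mice carried hypo-DMRs. Of the 82 tested genes with hypo-DMRs 6 (7.32%) were called and of the 96 with hyper-DMRs 2 (2.08%), beside 3.72% of all tested genes. This difference between directions was not tested. In obese against control mice the shares were 1.22% with hypo-DMRs and 2.08% with hyper-DMRs. The directions came from obese against control mice, and methylation of these regions in formerly obese mice was not analysed here. Apart from H2-T3, each call in formerly obese against control mice was lost without at least 1 library. For Slc8a1 these were control replicates 2 and 5 and formerly obese replicates 1 and 3 (log2 fold change 0.23 to 0.32 over the 15 fits). For Krba1 they were control replicates 1, 2 and 3 and formerly obese replicates 3 and 5 (-0.51 to -0.33). For Mgmt they were control replicates 1, 3 and 5 and formerly obese replicates 1, 3, 4 and 5 (-0.5 to -0.36), and for 9130019O22Rik control replicates 4 and 5 and formerly obese replicates 2, 3 and 4 (-0.4 to -0.27). Hoxd10 was lost without control replicate 1, 2, 3 or 5, obese replicate 2 or 5 or formerly obese replicate 1, 3 or 5 (-0.6 to -0.4). A fit of the compared groups only lost the calls of Hoxd10, Mgmt, Bola1 and 9130019O22Rik, upper-quartile scaling that of Slc8a1, and removal of a GC trend those of Slc8a1 and Mgmt.

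In formerly obese against obese mice, 8 of the 179 genes were called (4 higher and 4 lower, 4.47%), beside 2.65% of all tested genes. With upper-quartile scaling the split was 3 higher and 5 lower. Scd1, Tmem252, Hsd3b3 and Ppl were higher and Bola1, Hoxd10, Krba1 and Mif lower in formerly obese mice. By direction, 2 of 96 genes with hyper-DMRs (2.08%), both higher, and 6 of 82 with hypo-DMRs (7.32%), 2 higher and 4 lower, were called, and this difference was not tested. The directions are again those of obese against control mice. The medians of the log2 fold change were 0.00674 for genes with hyper-DMRs, -0.00245 for genes with hypo-DMRs and 0.0023 over all genes. Bola1, a mitochondrial protein of iron-sulfur cluster assembly, had an 11-bp hypo-DMR (chr3:96196826-96196836) in an untranslated exon 755 bp downstream of its start. Its levels were 8.04, 8.12, 7.75, 9.11 and 11.3 CPM in control mice, 11, 12.2, 11.9, 10.3 and 9.67 CPM in obese mice and 7.92, 5.58, 7.25, 7.18 and 5.99 CPM in formerly obese mice. All formerly obese mice were below all obese mice, and the control mice lay between and overlapped both. Against obese mice the log2 fold change was -0.7 ± 0.12 (SE) (edgeR adjusted p = 0.0292), and the call was kept in all 15 fits that left out a library. Against control mice it was -0.38 ± 0.122 (edgeR adjusted p = 0.114), a call lost without control replicate 4 or 5 or formerly obese replicate 2 or 5 (-0.44 to -0.28 over the 15 fits).

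Tmem252, a transmembrane protein gene with a 20-bp hyper-DMR (chr19:24673588-24673607) 410.5 bp upstream of its start, had 15.9, 21.6, 20, 36 and 28.2 CPM in control mice, 18.2, 13.7, 20.1, 17.1 and 13.6 CPM in obese mice and 31.9, 22.2, 37, 20.7 and 40.3 CPM in formerly obese mice. Formerly obese mice were all above the obese mice, and the control mice overlapped both groups. The log2 fold change was 0.88 ± 0.213 (SE, edgeR adjusted p = 0.0795) and was kept in all 15 fits that left out a library. Hsd3b3, a steroid dehydrogenase with a hypo-DMR 930.5 bp upstream of its start, had 249.7 ± 35.9 CPM in control mice, 239.4 ± 23.5 CPM in obese mice and 298.6 ± 27.1 CPM in formerly obese mice (SD, n = 5, edgeR adjusted p = 0.115 against obese). Ppl, the junction protein periplakin, was at 20.4 ± 2.69, 18.4 ± 0.769 and 22.1 ± 1.97 CPM (edgeR adjusted p = 0.173), and Mif, a cytokine with pseudogene copies, at 16.6 ± 1.82, 18.5 ± 1.63 and 14.8 ± 2.03 CPM (edgeR adjusted p = 0.152). Ppl and Mif had hypo-DMRs downstream of their starts, in an intron and an untranslated exon. The calls were lost without obese replicate 1 or 2 or formerly obese replicate 5 for Hsd3b3 (log2 fold change 0.27 to 0.37 over the 15 fits), without obese replicate 1, 2 or 5 or formerly obese replicate 2 or 3 for Ppl (0.22 to 0.3), and without obese replicate 1, 3 or 5 or formerly obese replicate 2, 4 or 5 for Mif (-0.39 to -0.26). Krba1 lost it without obese replicate 1, 2, 4 or 5 or formerly obese replicate 3 or 5 (-0.47 to -0.32), and Hoxd10 without control replicate 2, 3 or 5, obese replicate 1, 2 or 5 or formerly obese replicate 1, 3 or 5 (-0.59 to -0.4). The call of Ppl was also lost with upper-quartile scaling and with a minimum of 10 counts in every library, and that of Mif with removal of a GC trend.

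Calls were found on both sides of the start. Between obese and control mice 2 of 94 tested genes with an upstream region and 1 of 85 with downstream regions only were called. These shares, 2.13% and 1.18%, stand beside 1.58% of all tested genes. The medians of the log2 fold change were 0.00341 and -0.0255. In formerly obese against control mice the calls were 3 of 94 (3.19%) and 5 of 85 (5.88%), beside 3.72% of all tested genes. In formerly obese against obese mice they were 4 of 94 (4.26%) and 4 of 85 (4.71%), beside 2.65%. The shares rest on few called genes, and the differences were not tested. Of the 31 tested genes with a region within 250 bp of the start, 1 (3.23%) was called between obese and control mice. Of the 14 called genes 13 belonged to the 162 tested genes without an island-like region and 1, Hoxd10, to the 17 with one.

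BSP-seq gave methylation per mouse for 233 CpGs, and 0 of them lay inside a start-DMR. The nearest were 21 CpGs of an amplicon in Epha6, an ephrin receptor gene with 0 counts in all 15 libraries, at chr16:60605091-60605271, which begin 264 bp from the 100-bp hypo-DMR (chr16:60604728-60604827), itself in an intron 753.5 bp downstream of the start. Mean methylation over the 21 CpGs was 16.9%, 15.5%, 16.9%, 14.2% and 18.4% in the control mice, 16.3%, 18.5%, 18.7%, 16.6% and 16.1% in the obese mice and 17.5%, 18.2%, 18.2%, 18.6% and 18.1% in the formerly obese mice. The obese and control mice overlapped. The formerly obese mice lay near the upper end of the control range, with replicate 4 (18.6%) above the highest control mouse (18.4%). The difference was 0.9 percentage points between obese and control mice (exact two-sided permutation p = 0.365), 1.77 between formerly obese and control mice (exact permutation p = 0.0397, 0.119 adjusted over the 3 comparisons) and 0.868 between formerly obese and obese mice (exact permutation p = 0.167), where the smallest p that 5 against 5 mice allow is 0.00794. By limma, 0 of the 21 CpGs had an adjusted p under 0.05 in any comparison, and 0, 2 and 0 had an unadjusted p under 0.05 in the order given. Over all 233 CpGs, limma called 0.429%, 0.429% and 0%. The table gives no read depth for each CpG and mouse, and single values therefore carry no interval.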

How the data were processed

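RNA-seq, BSP-seq and WGBS of colonic epithelium covered 3 groups of 5 mice each, grouped by the sample labels. For RNA-seq, the authors mapped reads of a stranded mRNA kit to mm10 with TopHat2 2.0.4 and deposited raw HTSeq counts per gene. The strand mode and annotation release are not given in the sources used here, so overlapping and antisense genes are uncertain. For BSP-seq, values deposited are the methylated fraction at each CpG, and 20 of 253 entries repeated another exactly and were counted once. WGBS reads were aligned with Bismark by the authors, who tested CpGs of obese against control mice with a Rao-Scott likelihood ratio test, merged neighboring CpGs, and the deposited list used here gives positions and directions. Deposited DESeq2 tables of the authors' own fold changes and p-values were not used. WGBS values of single mice were not analysed here.

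Gene starts were the first base of each entry on its strand. The DMR file was read as 0-based, since all regions then begin and end on a CpG of GRCm38.p6 (100%). Transcript parts are from RefSeq, in which 404 of the 407 genes were found by ID. Of the 407 gene starts, 346 lay within 1 bp of a RefSeq transcript start of the same gene and 398 within 1000 bp. Counts were tested in R 4.3.3 with edgeR 4.0.16 (filterByExpr, TMM, a quasi-likelihood fit of all 15 libraries with the group as the only term), with Benjamini-Hochberg adjustment over all 12961 tested genes. In simulated data for obese against control mice (12903 genes), 167 of 200 changed genes were called (83.5%), with 26 false calls. In a simulation with 0 changed genes (12891 genes), 0 were called. The share of 83.5% holds for the changes put into the simulation and was not measured separately for genes with a start-DMR. The tested genes with a start-DMR had a median absolute log2 fold change of 0.0932 between obese and control mice. CpGs were tested with limma 3.58.1. The labels name no batch and do not say that replicate numbers pair mice, and p-values measure the spread between these mice. Total counts limit the precision of low genes.

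Named genes were those called in any comparison, the 8 of either direction with the smallest p in obese against control mice and a mean of at least 50 counts, those with more than 1 start-DMR, those of the 5 longest regions of either direction, and members of the gene lists. Other genes (imprinted genes, those of the regions with the most CpGs, of border regions, of gene pairs and at Mir194-1) were chosen after their values were seen. The members and lists were chosen with earlier results of these data known. Alternatives changed the scaling, filter, test, libraries, cutoffs and window, and a correction for GC content was added after the data were seen. The sequence of 1 further region is not reported here.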

Additional observations from a re-analysis of the deposited data

Results flagged for a closer look

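Within the groups of 5 mice, 5 values of the called genes and the Epha6 amplicon stood apart from the other 4 mice of their group, among 45 groups checked, where chance gives about 1 in 20. H2-T3 was lowest in control replicate 2, with 47.74 CPM against 64.65 to 70.85 in the other control mice. Kazald1 was lowest in control replicate 1, with 3.114 CPM against 4.986 to 5.275, and highest in formerly obese replicate 5, with 5.372 CPM against 3.635 to 4.136 in the other formerly obese mice. Krba1 was lowest in obese replicate 3, with 29.2 CPM against 38.51 to 39.36. Scd1 was highest in obese replicate 4, with 22.89 CPM against 17.76 to 18.74, and that mouse was still below all control mice.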

How the results depend on the processing

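Between obese and control mice, the count of 3 called genes moved to 1 with an adjusted p under 0.05 and no fold cutoff and to 8 with a window of 2000 bp. Leaving out each library gave 1 to 6, with 1 without control replicate 2 or obese replicate 1, 3 or 5 and 6 without obese replicate 2. The count of 8 in formerly obese against control mice moved to 4 with the compared groups only, to 1 with the stricter cutoff, to 3 with a 500-bp window and to 20 with 2000 bp. Leaving out each library gave 4 to 8, with 4 without control replicate 5 or formerly obese replicate 3 or 5, and 5 without control replicate 1 or 3 or formerly obese replicate 1. The count of 8 in formerly obese against obese mice moved to 2, 2 and 15 with the stricter cutoff, 500 bp and 2000 bp. Leaving out each library gave 4 to 8, with 4 without obese replicate 1, 2 or 5, and 5 without formerly obese replicate 5. The cause of these moves was not tested, except that a window of another width holds another number of genes. The windows of 500, 1000 and 2000 bp held 180, 407 and 712 gene entries before the filter on low counts. With the stricter cutoff, 16, 282 and 25 of all 12961 tested genes were called in the 3 comparisons, beside 1, 1 and 2 of the 179 members. With the replicate block the counts were 3, 7 and 7, of which 2, 6 and 7 genes were also called without it, and it ended the calls of Kazald1 (obese against control), Bola1 and Mgmt (formerly obese against control) and Ppl (formerly obese against obese). Same-numbered libraries deviated together in some pairs and not in others (correlations -0.231 to 0.333), which does not settle whether the numbers pair the mice. DESeq2 called 4, 8 and 8, and removal of a GC trend, chosen after the data were seen, gave 3, 6 and 8, of which 3, 6 and 7 were also called without it. The 397 regions became 180 at 500 bp, 702 at 2000 bp and 7 when the region had to overlap the start. The hyper share was 57.8% at 500 bp, 54.8% at 2000 bp, 56.9% for regions of at least 20 bp and 42.9% of the 7 regions that overlapped the start. Of the 19 calls, 5 were kept in every fit that left out a library, and among 2293 values of named genes under other settings 110 lost a call and 15 gained one. The Epha6 difference kept its sign in each setting.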
